A study of Homo sapiens with 4 samples.

Results

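The proteasome and immunoproteasome genes comprised 43 genes, chosen by symbol from the 78932 gene rows of a deposited RNA-seq count table with no measured value in the rule, though the list was drawn up with earlier results of these data known. Of these, 5 were the interferon-inducible members PSMB8, PSMB9, PSMB10, PSME1 and PSME2, and 38 were constitutive members: the 20S core (PSMA1 to PSMA7 and PSMB1 to PSMB7), the 19S regulator (PSMC and PSMD genes and ADRM1), the activators PSME3 and PSME4, and the assembly factor POMP. The RNA came from the human myeloma line RPMI 8226, an established cell line, harvested 72 h after transfection with a locked nucleic acid (LNA) antisense oligonucleotide, a short modified DNA strand that lowers the RNA it is complementary to. One group of 2 libraries received a control LNA (ASO1 in the labels) and the other group of 2 received an LNA against the long noncoding RNA LINC01432 (ASO3 in the labels) at 50 nM. The labels give no separate dose for the control LNA, and each group rested on 1 oligonucleotide in 1 cell line. Nothing in the labels ties the 2 libraries of a group to different cultures, and the spread behind each p-value is therefore that between libraries and may be technical.

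The 26S proteasome degrades ubiquitin-tagged proteins. Its 20S core is a stack of rings built from alpha and beta subunits, in which PSMB5, PSMB6 and PSMB7 carry the proteolytic sites, and its 19S cap binds, unfolds and feeds in the substrate. Interferon induces PSMB8, PSMB9 and PSMB10, which replace PSMB5, PSMB6 and PSMB7 respectively in newly built cores to give the immunoproteasome, and also PSME1 and PSME2, the subunits of the 11S (PA28 alpha-beta) activator. The immunoproteasome alters which peptides are made for display on MHC class I molecules, and plasma cells and myeloma cells, which make large amounts of secreted protein, are the main clinical target of proteasome inhibitors.

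The promoter windows of the inducible genes are shown because these genes are textbook interferon targets. Among them only PSMB8 and PSMB9 passed the test given below. RefSeq windows on GRCh38.p14, running from 250 bases before to 50 bases after each annotated start, were held for 38 of the 43 members (46 windows). PSMA7, PSMB1, PSMB6, PSMB7 and PSMD4 had none. The letters GAAANNGAA, the core of the interferon-stimulated response element without its last base, were searched on both strands. They were present in 2847 of 35116 windows of all genes (8.11%) and in 8 of the 46 windows of members. These windows belonged to 8 members: PSMB8, PSMB10, PSME1 and PSME2 among the inducible genes, and PSMA4, PSMB4, PSMC2 and POMP among the constitutive ones. The stretches of 30 bases around the match in the 4 inducible genes are at chr6:32844032-32844061 for PSMB8, chr16:67936853-67936882 for PSMB10, chr14:24136189-24136218 for PSME1 and chr14:24146620-24146649 for PSME2. They are written 5′ to 3′ on the strand of the gene (minus, minus, plus and minus in that order), with the match in capitals (in PSMB8 and PSME1 it reads on the opposite strand).
PSMB8: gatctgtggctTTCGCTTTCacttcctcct
PSMB10: agggtaaaggcGAAAGCGAAagcaggaagt
PSME1: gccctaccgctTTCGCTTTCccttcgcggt
PSME2: acctggggagtGAAAGCGAAagcccgggcg
In each of these 4 genes the match lay within 30 bases of an annotated start. The letters of the motif were not in the PSMB9 window. PSMB9 lies next to TAP1, which encodes a subunit of the peptide transporter into the endoplasmic reticulum, and the starts of this divergent gene pair are 488 bases apart. The 250 bases upstream of TAP1 (chr6:32853705-32853954, minus strand) and of PSMB9 (chr6:32853942-32854191, plus strand) together cover the stretch between the starts. The capitals in the TAP1 sequence mark a pair of overlapping GAAANNGAA matches, read on the opposite strand. No letter of the PSMB9 sequence is in capitals.
TAP1: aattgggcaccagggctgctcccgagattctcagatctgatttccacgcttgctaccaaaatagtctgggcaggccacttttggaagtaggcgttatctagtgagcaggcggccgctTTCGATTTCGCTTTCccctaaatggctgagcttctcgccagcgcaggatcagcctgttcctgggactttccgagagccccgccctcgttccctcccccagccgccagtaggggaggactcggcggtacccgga
PSMB9: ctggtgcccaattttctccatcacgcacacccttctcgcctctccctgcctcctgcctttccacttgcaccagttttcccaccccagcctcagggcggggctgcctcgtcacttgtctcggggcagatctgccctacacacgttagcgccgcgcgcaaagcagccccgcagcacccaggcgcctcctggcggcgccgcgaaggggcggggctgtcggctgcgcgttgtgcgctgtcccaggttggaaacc
A match is a description of the letters and does not show that a factor bound there. A window without a match says only that these letters are not in it.

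Library depth ranged from 20873393 to 29161298 gene counts. LINC01432 itself, the targeted RNA, was at 20.5 and 17.9 CPM (a gene's count relative to the library's total, with totals scaled by the TMM method) in control libraries 1 and 2 and at 9.0 and 9.9 CPM in LINC01432 LNA libraries 1 and 2, a log2 fold change of -1.02 ± 0.11 (SE; adjusted p = 0.000228 by edgeR's quasi-likelihood test with Benjamini-Hochberg adjustment, the test behind every adjusted p here unless another is named). All 8 plasma cell markers on a list were present, at a summed 3025 to 3211 CPM in the controls and 2628 to 2980 CPM after the LINC01432 LNA. Summed markers of T and NK cells (1.34 to 1.79 CPM in controls, 1.91 to 2.58 CPM after the LINC01432 LNA), of myeloid cells (3.47 to 3.63 and 4.29 to 5.51 CPM) and of fibroblasts and endothelium (4.57 to 4.77 and 6.25 to 7.49 CPM) were low, and those of epithelium, mainly EPCAM and KRT18, were at 114 to 118 and 99.2 to 99.8 CPM, with LYZ and KRT19 at 0 in every library. Their part in the results below was not tested. Fewer cells of a type and less RNA per cell cannot be told apart in such bulk samples.

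All 43 members had enough counts to be tested. After the LINC01432 LNA 3 members rose (PSMB8, PSMB9 and ADRM1), 3 fell (PSMB7, PSME4 and POMP) and 37 did not pass the test at an adjusted p of 0.05. These 6 members are 14.0% of the 43, against 11.9% of the 18680 genes tested. Over all genes 7.50% rose and 4.37% fell. The median log2 fold change was -0.05 over the members and 0.01 over all genes, and 33 of the 43 members had a log2 fold change within 0.2 of 0, as did 9344 of all 18680 genes. The libraries of the 2 groups did not overlap in CPM for 16 members, 6 higher and 10 lower, where 54.1% of all genes did not overlap (28.2% higher and 25.9% lower). The share of members called was thus near that of all genes.

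**Figure D1:**
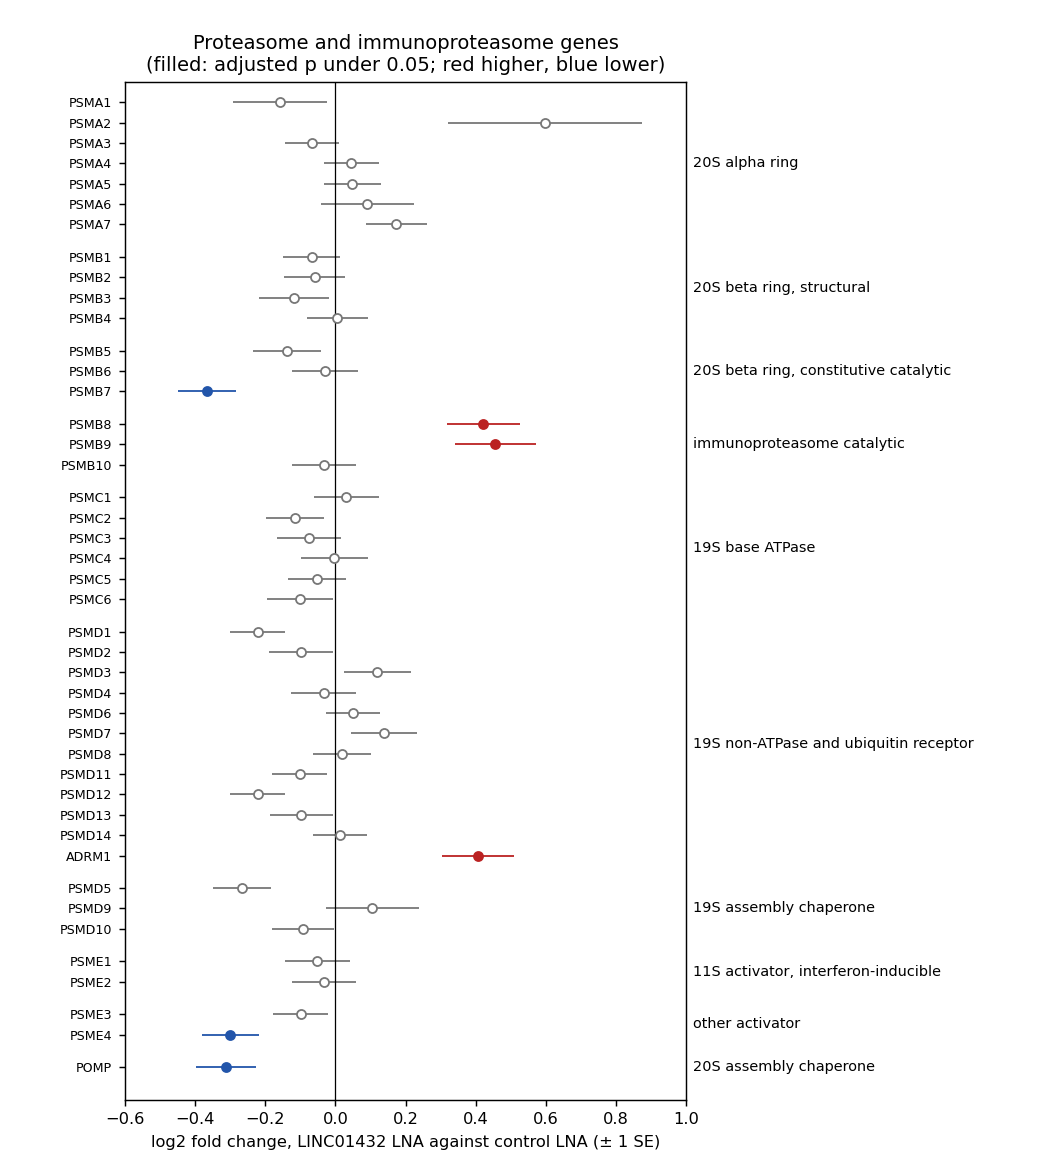
Log2 fold change of each of the 43 genes, LINC01432 LNA (n = 2) against control LNA (n = 2), with bars of 1 SE, ordered by role; filled points passed an adjusted p of 0.05 in edgeR red higher and blue lower. PSMB8, PSMB9 and ADRM1 lie to the right of 0, PSMB7, PSME4 and POMP to the left, and most of the other members lie within 0.2 of 0.

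The inducible genes differed in whether they passed the test. PSMB8 and PSMB9, neighbours in the MHC class II region of chromosome 6, rose 1.34-fold and 1.37-fold, while PSMB10, PSME1 and PSME2 were near their control levels. PSMB8 (ENSG00000204264, chr6:32840717-32844703, minus strand, GENCODE 29 on GRCh38) encodes the inducible chymotrypsin-like subunit that replaces PSMB5. It was at 155 and 164 CPM in the controls and at 189 and 238 CPM after the LINC01432 LNA. Both treated libraries were above both controls, with LNA library 2 the highest, and the 1.34-fold difference (log2 fold change 0.42 ± 0.10 SE) had an adjusted p of 0.0231 in edgeR. PSMB9 (ENSG00000240065, chr6:32844136-32859585, plus strand) encodes the subunit that replaces PSMB6. Its level was 123 and 131 CPM in the controls against 149 and 198 CPM, a 1.37-fold difference (log2 0.46 ± 0.12 SE, adjusted p = 0.0264 in edgeR). The groups did not overlap, and again LNA library 2 stood well above LNA library 1. The size of both rises moved with that library. Without LNA library 2 the log2 fold changes were 0.23 for PSMB8 and 0.22 for PSMB9. Without LNA library 1 they were 0.56 and 0.63. A fit without 1 library takes its spread from the group that keeps 2 libraries, so the spread of the other group does not enter the test there. Neither gene passed when either control library was left out (adjusted p from 0.0911 to 0.340 in edgeR).

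PSMB10 (ENSG00000205220, chr16:67934502-67937087, minus strand), the inducible trypsin-like subunit that replaces PSMB7, was at 37.7 and 43 CPM in the controls and at 38.3 and 40.4 CPM after the LINC01432 LNA. Here the groups overlapped, with a log2 fold change of -0.03 ± 0.09 SE (adjusted p = 0.870 in edgeR). The activator subunit PSME1 (chr14:24136158-24138967, plus strand) was at 129, 136, 117 and 139 CPM in control libraries 1 and 2 and LNA libraries 1 and 2, a log2 fold change of -0.05 ± 0.09 SE. Its partner PSME2 (chr14:24143362-24147570, minus strand) was at 199, 202, 180 and 211 CPM, a log2 fold change of -0.03 ± 0.09 SE. In both activator genes the controls lay between the LNA libraries, LNA library 1 being the lowest of the 4 and LNA library 2 the highest. PSMB8, PSMB10, PSME1 and PSME2 all hold the GAAANNGAA letters printed above, and only PSMB8 of these 4 passed the test. The 2 inducible genes that passed and the 3 that did not were not tested against each other.

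**Figure D2:**
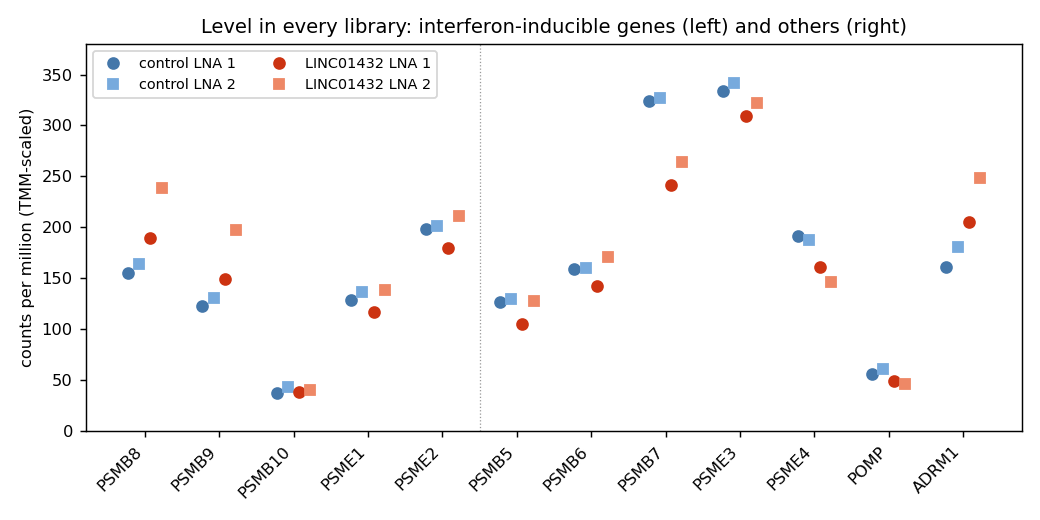
Level in CPM (TMM-scaled) of the 5 inducible genes (left) and of PSMB5, PSMB6, PSMB7, PSME3, PSME4, POMP and ADRM1 (right). Each gene has 1 point for each of the 4 libraries. In PSMB8, PSMB9 and ADRM1 both LINC01432 LNA libraries lie above both controls, in PSMB7, PSME3, PSME4 and POMP below them, and in PSMB10, PSME1 and PSME2 the groups overlap.

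Of the constitutive proteolytic subunits, 1 of 3 fell and none rose. PSMB7 (ENSG00000136930, chr9:124353466-124415444, minus strand), the constitutive trypsin-like subunit, was at 324 and 327 CPM in the controls and at 241 and 264 CPM after the LINC01432 LNA. The groups were well apart, and the log2 fold change of -0.37 ± 0.08 SE (adjusted p = 0.0140 in edgeR) had the smallest p of the 43 members. PSMB5, the chymotrypsin-like subunit and the main binding site of bortezomib, was at 126, 129, 105 and 128 CPM (log2 -0.14 ± 0.10 SE, adjusted p = 0.423 in edgeR). PSMB6, the caspase-like subunit, was at 159, 160, 142 and 171 CPM (log2 -0.03 ± 0.09 SE, adjusted p = 0.886 in edgeR). In PSMB5 and PSMB6 the groups overlapped. PSMB7 lost its call without either control library (adjusted p = 0.283 without control library 1 and 0.304 without control library 2 in edgeR), with log2 fold changes from -0.45 to -0.32 over the 4 fits that each left out 1 library.

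Because an inducible subunit takes the place of its constitutive counterpart, the counts of each pair were set against each other within a library, where the depth cancels. PSMB8 had 1.23 and 1.27 counts per count of PSMB5 in the controls and 1.81 and 1.87 after the LINC01432 LNA, means of 1.25 ± 0.0269 and 1.84 ± 0.0412 (SD, n = 2 each) and a 1.47-fold difference. PSMB9 had 0.769 and 0.816 counts per count of PSMB6 in the controls and 1.05 and 1.16 after the LINC01432 LNA, a 1.39-fold difference. PSMB10 had 0.116 and 0.131 counts per count of PSMB7 in the controls and 0.159 and 0.153 after the LINC01432 LNA, a 1.26-fold difference. All 3 ratios were higher in both LNA libraries than in both controls, although only the first 2 rested on a called rise of the inducible gene. Among single genes 54.1% did not overlap between the groups in CPM, and no such share was computed for ratios. In the PSMB10 to PSMB7 ratio it was the denominator that fell. These counts were not corrected for GC content. With the GC corrections described below, the log2 fold changes were -0.37 and -0.31 for PSMB10 and -0.40 and -0.35 for PSMB7. With 2 libraries against 2, the exact two-sided permutation test of a ratio cannot go below p = 0.33, and the ratios are given without a test.

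**Figure D3:**
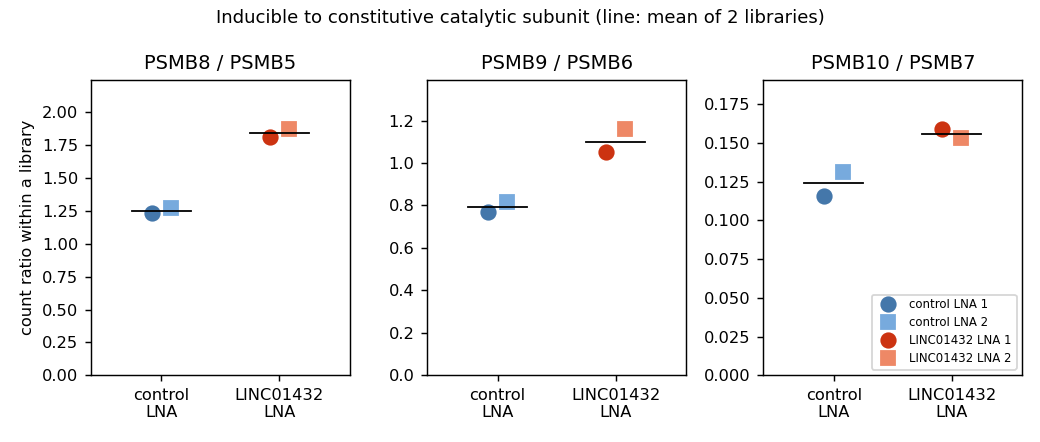
Count of the inducible catalytic subunit divided by the count of its constitutive counterpart within each library, for the pairs PSMB8 / PSMB5, PSMB9 / PSMB6 and PSMB10 / PSMB7; points are libraries and lines are group means, on axes starting at 0. In each pair both LINC01432 LNA libraries lie above both controls, with a mean 1.47, 1.39 and 1.26 times that of the controls. The counts are not corrected for GC content.

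Within a library, LNA libraries 1 and 2 were closer to each other in these ratios than in the CPM of the single genes. PSMB9 had 0.789, 0.798, 0.788 and 0.831 counts per count of PSMB8 in control libraries 1 and 2 and LNA libraries 1 and 2, so the neighbouring genes kept nearly the same proportion while both rose. PSME2 had 1.54, 1.48, 1.54 and 1.52 counts per count of PSME1, and these groups overlapped too. Against the other 11S subunit, PSME3, the mean ratio was 1.03 times that of the controls for PSME1 and 1.05 times for PSME2, with overlapping groups. The mean log2 CPM of the 5 inducible genes minus that of the 38 constitutive genes was 0.10 and 0.17 in the controls and 0.25 and 0.39 after the LINC01432 LNA, a difference of 0.185 against a pooled SD of 0.077. PSMB8 and PSMB9 carried this difference, since the other 3 inducible genes had log2 fold changes from -0.05 to -0.03.

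Most members were higher in LNA library 2 than in LNA library 1. This held for 37 of the 43 members, with a median log2 difference of 0.18, where 9323 of all 18680 genes were higher in library 2 with a median of 0.00. In the control pair 30 of the 43 members were higher in library 2, with a median log2 difference of 0.02. PSMB8, PSMB9 and ADRM1 followed the majority, whereas PSME4 and POMP, both of which fell, were lower in LNA library 2. The number of genes called, over the members and over all genes, differed with the library left out. Each of these fits took its spread only from the group that kept 2 libraries. Without LNA library 1 edgeR called 12 members (6 higher, 6 lower), which is 27.9% of them against 26.4% of all genes in that fit. Without LNA library 2 it called 27 members (4 higher, 23 lower), which is 62.8% against 21.6% of all genes, and PSMB5, PSMB6, PSME1 and PSME2 were among the lower ones. Without control library 1 or control library 2, where 3.82% and 5.27% of all genes were called, edgeR called 0 members, and 4 members had an unadjusted p under 0.05 in each of those fits, against 9 with all 4 libraries. With LNA library 1 alone as the treated group the median log2 fold change over the 43 members was -0.15.

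The activator PSME3, which forms a nuclear 11S ring without PSME1 and PSME2, was at 334 and 342 CPM in the controls and 309 and 322 CPM after the LINC01432 LNA, lower without overlap but not past the test (log2 -0.10 ± 0.08 SE, adjusted p = 0.487 in edgeR). PSME4 (PA200; ENSG00000068878, chr2:53864067-53970840, minus strand), a large single-chain activator, fell from 191 and 188 CPM to 161 and 146 CPM (log2 -0.30 ± 0.08 SE, adjusted p = 0.0355 in edgeR). POMP (ENSG00000132963, chr13:28659104-28678925, plus strand) is a chaperone for the assembly of new 20S cores, those of the immunoproteasome included. It fell from 56.3 and 61.3 CPM to 49.0 and 45.8 CPM (log2 -0.31 ± 0.08 SE, adjusted p = 0.0355 in edgeR). In PSME4 and in POMP both LNA libraries were below both controls. These were the smallest of the 6 called changes. Neither passed without control library 1 or without control library 2 (adjusted p from 0.189 to 0.497 in edgeR), and POMP was at an adjusted p of 0.0611 in edgeR when the counts were scaled by library totals alone, while its adjusted p ran from 1.82e-05 to 0.497 over all alternatives.

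None of the 7 alpha ring genes, which form the gated outer rings of the core, and none of the 4 structural beta genes passed the test. The most abundant alpha gene per length, PSMA7, was at 263 and 271 CPM in the controls and 282 and 320 CPM after the LINC01432 LNA, higher without overlap (log2 0.17 ± 0.09 SE, adjusted p = 0.236 in edgeR). PSMA1, PSMA3, PSMA4, PSMA5 and PSMA6 had log2 fold changes of -0.16, -0.07, 0.04, 0.05 and 0.09. The structural beta genes PSMB1, PSMB2, PSMB3 and PSMB4 had log2 fold changes of -0.07, -0.06, -0.12 and 0.00, each with overlapping groups. PSMA2 had the largest log2 fold change of any member, 0.60, but also the largest error (0.28 SE, adjusted p = 0.20 in edgeR). It rested on 48, 37, 64 and 47 counts in control libraries 1 and 2 and LNA libraries 1 and 2.

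The 6 ATPases of the 19S base (PSMC1 to PSMC6), the ring that unfolds the substrate, lay between log2 fold changes of -0.12 and 0.03 and none passed the test. Among the 12 non-ATPase subunits 1 rose and none fell. ADRM1 (ENSG00000130706, chr20:62302093-62308862, plus strand), a ubiquitin receptor of the 19S cap, rose from 161 and 181 CPM to 205 and 249 CPM (log2 0.41 ± 0.10 SE, adjusted p = 0.0255 in edgeR). Its groups did not overlap, but it lost its call without control library 1 or control library 2 (adjusted p = 0.485 and 0.114 in edgeR), and its log2 fold change was 0.24 without LNA library 2. PSMD4, the other main ubiquitin receptor of the cap, was at 352, 350, 315 and 370 CPM (log2 -0.03 ± 0.09 SE). PSMD14, the deubiquitinase of the lid, was at 131, 133, 130 and 136 CPM (log2 0.01 ± 0.08 SE). The largest falls short of the threshold were in PSMD5, a chaperone of 19S assembly (33.8 and 33.8 CPM in controls, 27.8 and 28.4 CPM after the LINC01432 LNA, adjusted p = 0.0609 in edgeR), the lid subunit PSMD12 (log2 -0.22, adjusted p = 0.0930 in edgeR) and the scaffold subunit PSMD1 (log2 -0.22, adjusted p = 0.0975 in edgeR). In each of these 3 genes both LNA libraries were below both controls. The lid subunit PSMD7 was at 76.2, 82.9, 80.3 and 94.6 CPM, with overlapping groups and a log2 fold change of 0.14. The other non-ATPase subunits (PSMD2, PSMD3, PSMD6, PSMD8, PSMD11 and PSMD13) lay between log2 fold changes of -0.10 and 0.12, and the assembly chaperones PSMD9 and PSMD10 were at 0.11 and -0.09.

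Fold changes followed the GC content of the exons over all genes. The median log2 fold change rose from -0.14 in the lowest of 10 equal bins of GC content to 0.37 in the highest, and 63.2% of called genes were higher without a correction against 35.4% and 48.9% with 2 forms of correction. The members spanned GC contents from 34.6% in POMP to 65.0% in ADRM1, so the correction moved the members at the ends. One form subtracted each library's own trend of log2 CPM on GC content, and the other, added after the data were seen, subtracted the trend of each library's deviations from the mean over libraries. ADRM1 changed sign, to log2 fold changes of -0.11 (adjusted p = 0.455 in edgeR) and -0.03 (adjusted p = 0.870). PSMB10, with a GC content of 61.9%, was called lower, at -0.37 (adjusted p = 0.0118) and -0.31 (adjusted p = 0.0310). POMP was at -0.17 (adjusted p = 0.217) and -0.15 (adjusted p = 0.258), and PSME4 at -0.22 (adjusted p = 0.0614) and -0.19 (adjusted p = 0.0781), so both lost their calls.

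PSMB8, PSMB9 and PSMB7, with GC contents of 51.8%, 47.7% and 48.4%, kept theirs. With the first form PSMB8 was at a log2 fold change of 0.34 (adjusted p = 0.0475 in edgeR), PSMB9 at 0.44 (adjusted p = 0.0366) and PSMB7 at -0.40 (adjusted p = 0.00808). The second form gave 0.40 (adjusted p = 0.0216), 0.48 (adjusted p = 0.0244) and -0.35 (adjusted p = 0.0101). With either form the members called were PSMB8 and PSMB9 on the higher side and PSMB7 and PSMB10 on the lower side. Both genes of the PSMB10 to PSMB7 ratio were then lower. The mean difference between inducible and constitutive genes was 0.064 and 0.080 under the 2 forms, against 0.185 without one. Of the inducible genes PSMB10 moved most, and PSME1 and PSME2 also moved down under both forms, to log2 fold changes of -0.175 and -0.105 under the first and -0.116 and -0.050 under the second. Whether the trend with GC content came from the libraries or from the cells was not tested.

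**Figure D4:**
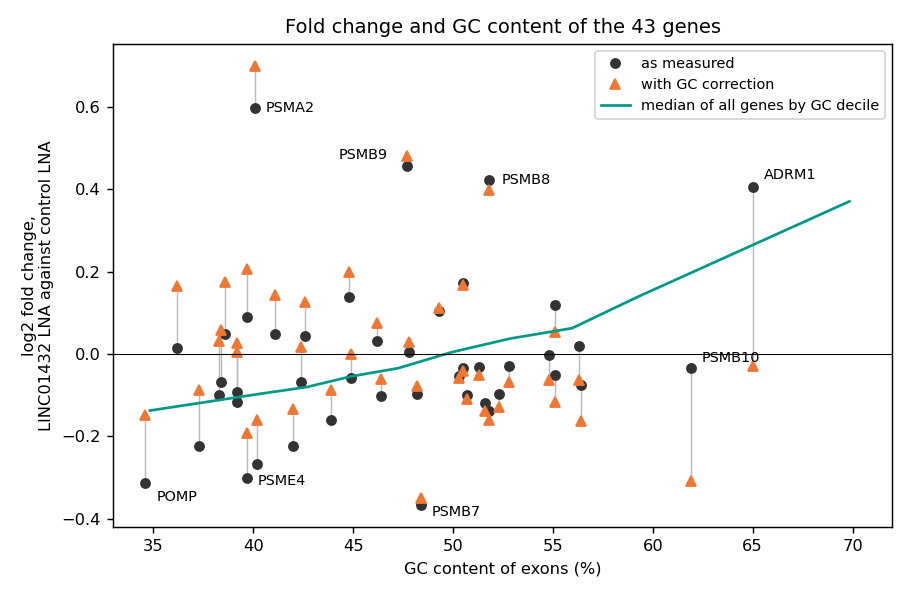
Log2 fold change (LINC01432 LNA against control LNA) against the GC content of the exons for the 43 genes, as measured (circles) and with the correction on deviations (triangles), with a line for the median of all genes in each of 10 bins of GC content. The medians climb from -0.14 to 0.37; ADRM1 and PSMB10 lie at the high end and POMP at the low end, and PSMB8, PSMB9 and PSMB7 lie in the middle, where circle and triangle nearly coincide.

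Compared per length of exon (CPM per kb), levels of the members ranged widely. PSMA2, PSMA1, PSMA6 and the assembly chaperone PSMD9 had mean levels of 0.375, 2.35, 1.58 and 1.11 CPM per kb. PSMA7 was at 162 and PSMB3, the highest member, at 202. In GENCODE 29, 97.1% of the coding bases of PSMA2 and 88.6% of PSMA1 also lie in exons of another gene model. For PSMA6 and PSMD9 the shares are 70.4% and 58.7%, and for PSMB10, at 21.5 CPM per kb, 58.3%. Each of these 5 genes has such a partner on the same strand (AC010132.3, AC018523.2, AL121594.1, AC069503.2 and AC040162.1), and the partners had 0 to 2 counts in any library, apart from AC040162.1 with 66 to 99. PSMD9 also overlaps WDR66 on the same strand, which had 27 to 38 counts. These 5 genes were at 0.375 to 21.5 CPM per kb with a median of 1.58, against 5.63 to 202 with a median of 60.3 for the 23 members that share no exon bases with another gene. Whether the counting set aside reads that fall in both genes was not tested, so the levels and fold changes of these 5 genes, PSMB10 among them, are uncertain. PSMC1, at 6.78 CPM per kb, shares 47.7% of its coding bases with NRDE2 on the opposite strand. ADRM1 shares 29.6% of its coding bases with exons on the opposite strand, from LAMA5 (837 to 1300 counts) and AL354836.1, and PSMB8 shares 14.0% with PSMB9 and PSMB8-AS1 (55 to 66 counts). The strand setting of the counting was not given in the sources used here.

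**Figure D5:**
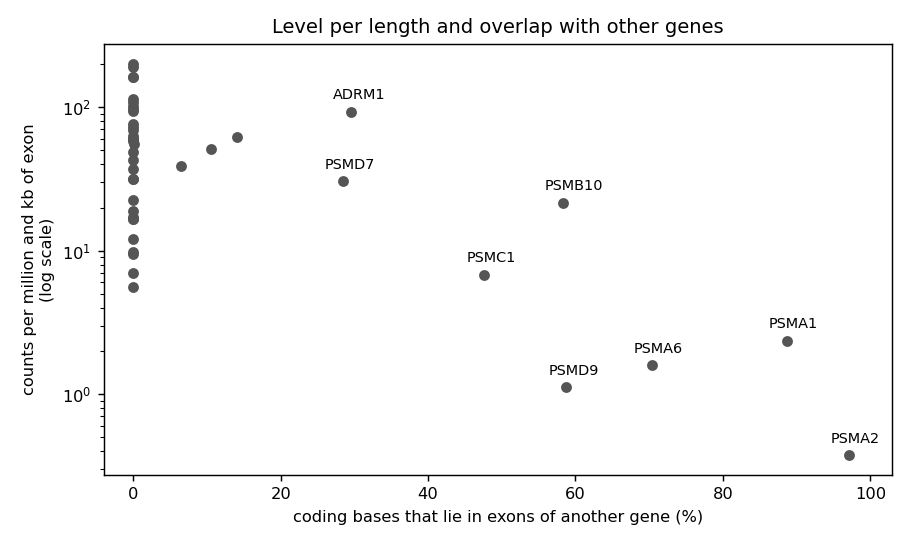
Mean level per length (CPM per kb of exon, log scale) of each of the 43 genes against the percentage of its coding bases that also lie in exons of another gene in GENCODE 29. The 5 genes above 50% (PSMA1, PSMA2, PSMA6, PSMD9 and PSMB10) lie between 0.375 and 21.5, while the 23 genes that share no exon bases with another gene lie between 5.63 and 202.

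Of 32 other genes of the proteasome pathway (assembly chaperones, inhibitors, shuttle factors, ubiquitin genes and transcription factors), 30 could be tested, and PSMA8 and PSMB11, the testis and thymus subunits, could not. Of the 30, 2 rose and 2 fell (13.3%, against 11.9% of all genes), with a median log2 fold change of -0.05. PSMG4, a chaperone of alpha ring assembly, rose from 75.6 and 82.5 CPM to 105 and 106 CPM (log2 0.42 ± 0.08 SE, adjusted p = 0.00624 in edgeR). AKIRIN2, which brings proteasomes into the nucleus, rose from 22.2 and 24.1 CPM to 30.9 and 30.3 CPM (log2 0.40 ± 0.09 SE, adjusted p = 0.0125 in edgeR). PSMF1, the proteasome inhibitor PI31, fell from 236 and 232 CPM to 180 and 193 CPM (log2 -0.33 ± 0.08 SE, adjusted p = 0.0211 in edgeR). ECPAS, an adaptor that binds the 26S proteasome, fell from 189 and 187 CPM to 160 and 147 CPM (log2 -0.29 ± 0.08 SE, adjusted p = 0.0371 in edgeR). In all 4 genes the groups did not overlap, and none of the 4 passed without control library 1 or without control library 2.

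Of a list of 25 genes that act beside or after the proteasome in MHC class I presentation, 10 rose and 2 fell (48.0%, against 11.9% of all genes), with a median log2 fold change of 0.29. TAP1 (ENSG00000168394, chr6:32845209-32853978, minus strand), which shares the region printed above with PSMB9, was at 234 and 262 CPM in the controls and 423 and 542 CPM after the LINC01432 LNA. The log2 fold change was 0.96 ± 0.11 SE (adjusted p = 0.000371 in edgeR), with no overlap. TAP1 had 1.91 and 2.01 counts per count of PSMB9 in the controls and 2.83 and 2.74 after the LINC01432 LNA, so TAP1 had the larger fold change of these divergent neighbours in both LNA libraries. TAP2, the other transporter subunit, next to PSMB8, was not called (log2 0.10 ± 0.10 SE, adjusted p = 0.564 in edgeR), with overlapping groups. Of the coding bases of TAP2, 90.6% also lie in exons of another gene model on the same strand. Its mean level was 9.4 CPM per kb of exon, against 76.0 for TAP1. Whether the counting set aside reads that fall in both genes was not tested. The level and fold change of TAP2 are therefore uncertain.

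Among the known regulators of the inducible subunits, IRF1 rose by a log2 fold change of 0.58 ± 0.08 SE (adjusted p = 0.000703 in edgeR) and NLRC5, the activator of MHC class I genes, by 0.51 ± 0.08 SE (adjusted p = 0.00195 in edgeR). TAPBP, HLA-E, HLA-F, HLA-G and the peptidase THOP1 also rose, by log2 fold changes of 0.57, 0.61, 0.87, 0.85 and 0.42, and the chaperone PDIA3 and the peptidase TPP2 fell by 0.38 and 0.37 on the log2 scale. The HLA class I genes are similar in sequence, and reads may have been split among them. THOP1 was at 0.01 with the first form of GC correction and 0.08 with the second, so its call was lost, as was that of HLA-G with the first form (adjusted p = 0.0587 in edgeR). TAPBP and HLA-G had adjusted p-values of 0.160 and 0.0670 by DESeq2's Wald test. NLRC5 lost its call without control library 1 or control library 2 (adjusted p = 0.0852 and 0.0801 in edgeR), as did THOP1, PDIA3 and TPP2. TAPBP, HLA-E and HLA-G lost theirs without control library 1, and HLA-G also without LNA library 2. Without LNA library 2 the log2 fold changes of TAPBP, HLA-E and THOP1 were 0.30, 0.38 and 0.27. The number of genes called was 4 of 25 without control library 1 (16.0%, against 3.82% of all genes in that fit) and 21 of 25 without LNA library 1 (84.0%, against 26.4%).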

How the data were processed

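Counts of 43 genes were compared between 2 control LNA and 2 LINC01432 LNA libraries of RPMI 8226 cells, grouped by their titles. The members and gene lists were chosen with earlier results of these data known. The authors deposited whole-number gene counts without normalization. Per the submitters' processing notes, bcl2fastq, STAR 2.7.11b, featureCounts 2.0.8 of Subread and Salmon 1.10.0 were used with GRCh38, with no role or order given. Which annotation and strand setting were used is not given in the sources used here. The design text names poly(A) selection and the labels' protocols name removal of ribosomal RNA. Rows of spike-ins and transgenes (97 rows, at most 4.20e-05% of a library) were left out. All per-sample columns were used.

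The edgeR 4.0.16 quasi-likelihood test (R 4.3.3, TMM, filterByExpr with minimum count 10 and minimum total 15, group as the only term) was fitted to 18680 genes, and a gene was called where the p adjusted by Benjamini-Hochberg was under 0.05. The biological coefficient of variation was 7.13%. Standard errors were derived from the F statistic. CPM used TMM-scaled sizes. A gene was named if it was an inducible member, a constitutive catalytic counterpart (PSMB5, PSMB6, PSMB7), PSME3, PSME4 or POMP. Also named were called genes of a list, the 3 largest uncalled rises and the 3 largest uncalled falls, LINC01432, TAP1, TAP2, IRF1 and NLRC5. Some called genes of the MHC class I list are counted but not reported here by name. Other members were named to describe their module, after their values were seen.

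Positions, exon lengths, GC content and overlaps came from GENCODE 29, promoters from RefSeq on GRCh38.p14. Alternatives were median-of-ratios scaling within edgeR (its RLE method), library totals, the Wald test of DESeq2 1.42.0, limma-voom (limma 3.58.1), other filters and each library left out. Further ones were the replicate number as a block, summing the IDs of a symbol, a threshold of 0.01 and GC correction (lowess, span 0.3). The form of GC correction on deviations was added after the data were seen. The fit was tested on simulated counts. No pair of libraries held identical values. Figures used matplotlib 3.10.9.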

Additional observations from a re-analysis of the deposited data

How the results depend on the processing

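PSMB8, PSMB9 and PSMB7 kept their direction under all 17 alternatives run for each, and lost their calls without control library 1 or 2 and at an adjusted p of 0.01. At 0.01 edgeR called 0 members (9 had an unadjusted p under 0.05, as with DESeq2 and limma-voom, which at 0.05 called the same 6 members), 1 other pathway gene, 6 MHC class I genes and 1000 genes in all, against 2218 at 0.05. Leaving out 1 library gave 766 to 5228 genes, 0 to 27 members, 0 to 13 other pathway genes and 4 to 21 MHC class I genes. GC correction gave 2197 genes, 35.4% of them higher, or 1928 on deviations, 48.9% of them higher. The difference between inducible and constitutive genes moved from 0.185 to 0.064 and, on deviations, 0.080, the same with the replicate block. ADRM1 was reversed, at -0.107 and -0.109 with the block, and on deviations -0.028 and -0.030. Leaving out 1 library also reversed PSMB10 (-0.143 to 0.051, above 0 without control library 2), PSME1 (-0.201 to 0.052), PSME2 (-0.171 to 0.062) and PSMB6 (-0.185 to 0.077), these 3 above 0 without LNA library 1, and PSMD7 (-0.002 to 0.235) and TAP2 (-0.060 to 0.218), both below 0 without LNA library 2. The other members whose sign changed in such fits were PSMA4, PSMA5, PSMA6, PSMB2, PSMB3, PSMB4, PSMC1, PSMC3, PSMC4, PSMC5, PSMD3, PSMD4, PSMD8, PSMD9 and PSMD14. The fit with no filter moved the median log2 fold change of all genes from 0.013 to 0.092. The cause was not tested.

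Same-numbered libraries deviated together only slightly (r = 0.126 over 18680 genes, 2 pairs), so they were taken to share only a number. The replicate block called 3862 genes and 9 members, with GC correction 3747 genes, and on deviations 3761 genes and 7 other pathway genes. Depth limited PSMA2 most, at 37 to 64 counts.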

Other observations

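Rows of pseudogenes named after members held counts of their own. Counts on 4 PSMA6 pseudogenes came to 47.9% to 57.5% of the counts on PSMA6 in each library, those on 13 PSMC1 pseudogenes to 25.8% to 31.0% of PSMC1, and those on 2 PSME2 pseudogenes to 6.89% to 7.93% of PSME2. For PSMA2 the share was 4.17% to 43.2%, on 2 to 16 counts.

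Other motifs were searched on both strands of the promoter windows. TTCNNNGAA, the gamma-activated site, was in 7.66% of all windows and in 7 of the 46 windows of members. They belonged to 7 of the 38 members (PSMA2, PSMB5, PSMB8, PSMC4, PSMD2, PSMD3 and PSME3). TGACNNNGC, the core of the antioxidant response element, was in 13.3% of all windows and in 15 of the 46 windows of members. These belonged to 14 members, 11 of them constitutive.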
